A study of Mus musculus with 7 samples.

Results

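The ATF4 and CHOP arm of the integrated stress response was followed through 10 genes in the mdx heart: Atf4, Atf3, Atf5, Ddit3, Trib3, Chac1, Asns, Sesn2, Ppp1r15a and Fgf21. They were taken by name, and every probe set that the platform annotation assigns to exactly 1 of them was used, which gave 16 of 45037 probe sets and 10 of 18193 genes. RNA came from whole hearts of 7 male mice at 7 months of age, with 1 heart per array. All 7 mice carried the mdx mutation on a C57BL/10ScSn origin, a loss of dystrophin used as a model of Duchenne muscular dystrophy. The 4 mdx HRTΔIKKβ mice carried Myh6-Cre, whose promoter is active in cardiomyocytes, and had lost their floxed IKKβ there, the kinase upstream of NF-κB. As controls served 3 mdx IKKβf/f littermates, which kept the floxed gene and have no Cre listed. A wild-type heart without the mdx mutation was not analysed here, so the values compare dystrophic hearts with each other. Values are log2 signals after RMA (robust multi-array average), and each difference is the mean of mdx HRTΔIKKβ hearts less that of mdx IKKβf/f hearts, with its standard error from limma.

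The integrated stress response begins when a kinase phosphorylates the translation factor eIF2α. PERK does so under stress of the endoplasmic reticulum, GCN2 when amino acids are short, PKR with double-stranded RNA and HRI when heme is short or mitochondria are stressed. General translation then slows while the Atf4 mRNA is translated better, and ATF4 protein switches on genes for amino acid supply, further transcription factors such as CHOP, and feedback inhibitors of the response itself. In mouse hearts with damaged mitochondria the pathway is known for raising Fgf21, a secreted hormone. The arrays read RNA, and the part of the pathway that runs through translation is outside what they measure.

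ATF4 and CHOP bind DNA as dimers with C/EBP proteins at a composite element whose core reads TGATGNAA, or TTNCATCA on the opposite strand. Both strands of the 300 bases from 250 before to 50 after each gene start were searched in RefSeq promoters of the GRCm38.p6 build, where all 10 genes matched with 11 promoters. The core occurred in the promoters of 5 of the 10 genes, Atf3, Trib3, Chac1, Asns and Fgf21, and in 3.97% of all 32851 promoters in the table. The stretches around these 5 matches are shown because they are what these genes share in sequence, with the core in capitals and each read 5′ to 3′ along the gene.
Atf3, chr1:191183410-191183469, minus strand, core starting at position -110 from the gene start: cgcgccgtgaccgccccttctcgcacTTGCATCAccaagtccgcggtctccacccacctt
Chac1, chr2:119351023-119351082, plus strand, core at -193: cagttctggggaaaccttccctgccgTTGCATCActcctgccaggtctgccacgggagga
Fgf21, chr7:45615596-45615655, minus strand, core at -139: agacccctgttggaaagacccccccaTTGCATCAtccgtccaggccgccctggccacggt
Asns, chr6:7693214-7693243, minus strand, core at -23: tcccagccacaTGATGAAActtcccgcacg
Trib3, chr2:152344028-152344057, minus strand, core at 15 within the transcribed part: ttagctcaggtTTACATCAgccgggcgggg
Atf3, Chac1 and Fgf21 held the same 8 letters, TTGCATCA. Atf4, Atf5, Ddit3, Sesn2 and Ppp1r15a held no match in this window. A match describes letters only, and binding was not measured. Of these 5 genes with the core, Asns differed most between the genotypes (0.41) and Fgf21 least (0.01).

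The arrays had medians between 6.73 and 6.75, and any pair correlated at 0.9875 or more over probe sets. Cardiomyocyte genes (Myh6, Tnnt2, Tnni3, Actc1, Pln and Ryr2) were among the brightest on the array, and their mean centred level lay between -0.01 and 0.01 in mdx HRTΔIKKβ hearts and between -0.03 and 0.03 in mdx IKKβf/f hearts. Ikbkb, which encodes IKKβ, differed by -0.18 ± 0.11 in the brightest of its 5 probe sets (limma, adjusted p = 0.801), and no source used here says whether these probe sets lie in the deleted part. Some hearts stood apart in genes of other tissues. For all 9 genes of fast skeletal muscle the mean was lower in mdx HRTΔIKKβ hearts, where their mean centred level ran from -1.62 to 0.24, against -1.37 to 4.70 in mdx IKKβf/f hearts, with mdx IKKβf/f replicate 1 at the top. For all 4 airway genes the mean was higher in mdx HRTΔIKKβ hearts (-1.0 to 3.18, against -1.26 to -0.54 in mdx IKKβf/f hearts), with mdx HRTΔIKKβ replicate 2 at 3.18. The 2 measured neutrophil genes ran from -2.15 to 4.05 in mdx HRTΔIKKβ hearts and from -2.11 to 3.71 in mdx IKKβf/f hearts, with these same 2 hearts at the top. The 4 atrial genes were lowest in mdx IKKβf/f replicate 2 (-2.37). The 3 smooth muscle genes were highest in mdx IKKβf/f replicate 3 (1.26), against -0.20 to 0.05 in mdx HRTΔIKKβ hearts. That heart also stood at 1.0 in the fast skeletal muscle genes. The mean levels of the lymphocyte and mesothelial genes separated the genotypes, while those of the macrophage genes overlapped. The 6 measured lymphocyte genes had a mean centred level of 0.09 to 1.58 in mdx HRTΔIKKβ hearts and of -1.30 to -0.24 in mdx IKKβf/f hearts. Ighm, the antibody heavy chain gene, differed by 3.25 ± 0.71 (limma, adjusted p = 0.789). Of these genes only Ighm lay wholly apart between the genotypes, while Jchain, Ms4a1, Cd79a, Cd3d and Cd3e overlapped. The 3 mesothelial genes ran from -0.19 to 1.08 in mdx HRTΔIKKβ hearts and from -0.73 to -0.45 in mdx IKKβf/f hearts. For all 8 macrophage genes the mean was higher in the mdx HRTΔIKKβ group (-0.14 to 0.27, against -0.31 to -0.08 in mdx IKKβf/f hearts). Of these, C1qa (0.41) and Cd163 (0.57) lay wholly higher in mdx HRTΔIKKβ hearts, and the others overlapped.

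Across the 10 genes, no difference between the genotypes passed the test. In mdx HRTΔIKKβ hearts 13 of the 16 probe sets had a higher mean and 3 a lower mean. None reached an adjusted p of 0.05 in limma (0% of all 45037 probe sets did), none reached an unadjusted p of 0.05 in limma or in the methods' t-test, and the smallest unadjusted p in limma was 0.0685. That unadjusted threshold was reached by 3.31% of all probe sets in the higher direction and by 2.76% in the lower. Likewise 0 of the 16 differed by 1.5-fold (0.79% of all were that much higher and 0.242% lower), and in 0 of the 16 did the genotypes fail to overlap (3.01% of all lay wholly higher and 2.44% wholly lower). Counted with the brightest probe set per gene, 9 genes had a higher mean and 1, Ddit3, a lower mean. The median difference over the 10 genes was 0.17, beside -0.01 over all 18193 genes. The hearts highest in airway and neutrophil genes (mdx HRTΔIKKβ replicate 2) and in fast skeletal muscle genes (mdx IKKβf/f replicate 1) were then left out. mdx IKKβf/f replicate 3, highest in smooth muscle genes, was kept. The median over the 10 genes was 0.048 without mdx HRTΔIKKβ replicate 2 and mdx IKKβf/f replicate 1. Without them Chac1 differed by 0.706, Asns by 0.308, Ppp1r15a by 0.272, Atf5 by 0.214, Atf4 by 0.0573, Sesn2 by 0.0382 and Atf3 by 0.000492, while Fgf21 differed by -0.0419, Trib3 by -0.0425 and Ddit3 by -0.199. The part of the other tissues and of the immune cells in these values was not tested. In a whole heart, fewer cells of a type and less RNA per cell cannot be told apart.

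**Figure D1:**
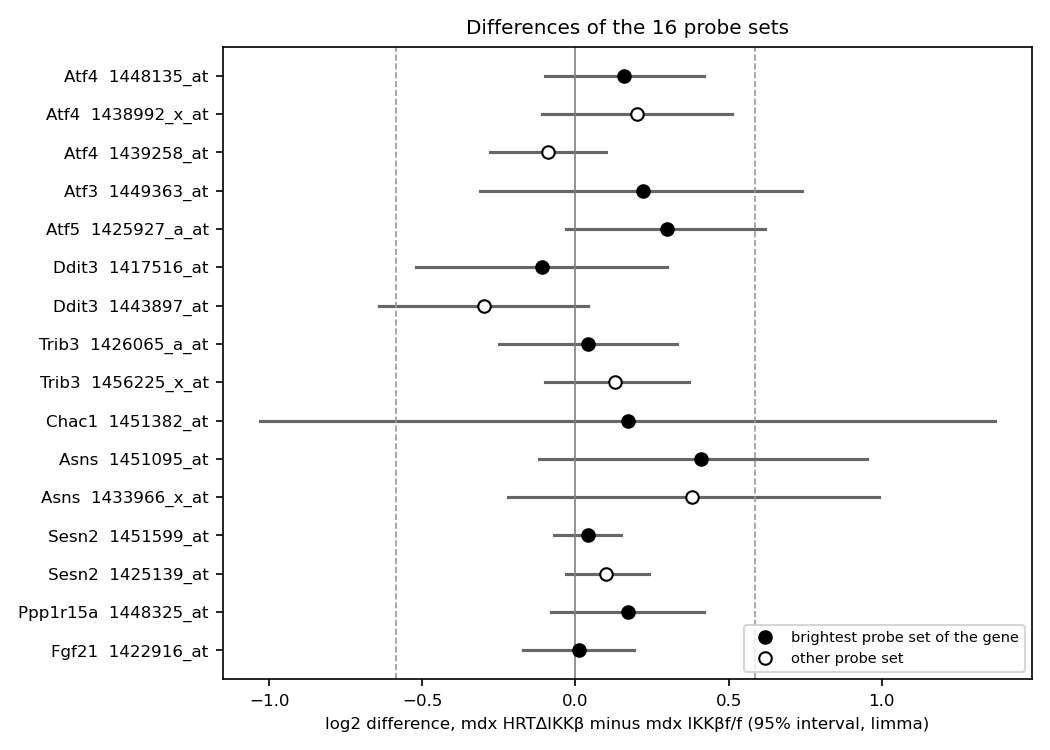
Difference of mdx HRTΔIKKβ less mdx IKKβf/f hearts on the log2 scale (x axis) for each of the 16 probe sets (rows), with 95% intervals from limma. Filled points mark the brightest probe set of each gene, and dashed lines mark 1.5-fold. All 16 intervals cross 0, and that of Chac1 is the widest, from -1.03 to 1.37.

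Atf4 encodes the transcription factor at the center of the response. Its brightest probe set (1448135_at) gave 11.39, 11.61, 11.11 and 11.27 in mdx HRTΔIKKβ replicates 1 to 4, against 11.15, 11.24 and 11.16 in mdx IKKβf/f replicates 1 to 3. The mdx IKKβf/f hearts lay close together, within 0.08, while the mdx HRTΔIKKβ hearts spanned 0.50 and included both the highest and the lowest of the 7. The means were 11.35 ± 0.21 in mdx HRTΔIKKβ hearts (SD, n = 4) and 11.18 ± 0.05 in mdx IKKβf/f hearts (SD, n = 3), which differed by 0.16 ± 0.11 (adjusted p = 0.814 in limma). Without mdx HRTΔIKKβ replicate 2, the highest heart, it was 0.0724. A probe set of Atf4 that can cross-hybridize (1438992_x_at) followed the same order loosely, with a correlation of 0.83 over the 7 hearts and a difference of 0.20 ± 0.13. The dimmest (1439258_at) followed neither well (-0.01 with the brightest) and differed by -0.09 ± 0.08, so the probe sets of Atf4 disagree in sign.

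Atf5, a relative of ATF4 whose mRNA is also translated better when eIF2α is phosphorylated, came closest to the threshold. It gave 9.92, 9.98, 9.53 and 9.93 in mdx HRTΔIKKβ hearts, against 9.47, 9.37 and 9.80 in mdx IKKβf/f hearts. In the mdx HRTΔIKKβ group 3 hearts exceeded every mdx IKKβf/f heart, and replicate 3 fell among the controls. The means of 9.84 ± 0.21 in mdx HRTΔIKKβ hearts and 9.54 ± 0.23 in mdx IKKβf/f hearts (SD) differed by 0.30 ± 0.14 (limma, adjusted p = 0.796). Its interval ran from -0.03 to 0.62.

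Atf3, a repressor and activator of the same family that many kinds of stress induce, gave 8.34, 9.10, 8.98 and 8.19 in mdx HRTΔIKKβ hearts, against 8.30, 8.47 and 8.54 in mdx IKKβf/f hearts. Replicates 2 and 3 of mdx HRTΔIKKβ lay above all controls, replicate 4 below all of them and replicate 1 among them. The spread within groups was larger than for 96.6% of all probe sets. The difference was 0.22 ± 0.23 (limma, adjusted p = 0.854), and it was 0.0692 without mdx HRTΔIKKβ replicate 2 and 0.000492 when mdx IKKβf/f replicate 1 was also left out.

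Ddit3 encodes CHOP, the factor downstream of ATF4 that is known for promoting cell death in long stress. It was the only one of the 10 genes with a lower mean in mdx HRTΔIKKβ hearts, which read 9.73, 9.76, 9.13 and 9.49, against 9.61, 9.40 and 9.89 in mdx IKKβf/f hearts. The genotypes overlapped fully apart from mdx HRTΔIKKβ replicate 3 at the bottom and mdx IKKβf/f replicate 3 at the top, and the difference was -0.11 ± 0.18 (limma, adjusted p = 0.908). Leaving out either of these 2 hearts turned the sign, to 0.0238 and to 0.0199. The second probe set (1443897_at) gave 7.80, 7.57, 7.11 and 7.47 in mdx HRTΔIKKβ hearts, against 7.79, 7.76 and 7.83 in mdx IKKβf/f hearts. Here the controls lay within 0.06 and 3 of the 4 mdx HRTΔIKKβ hearts lay below them, with a difference of -0.30 ± 0.15 (limma, adjusted p = 0.796).

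**Figure D2:**
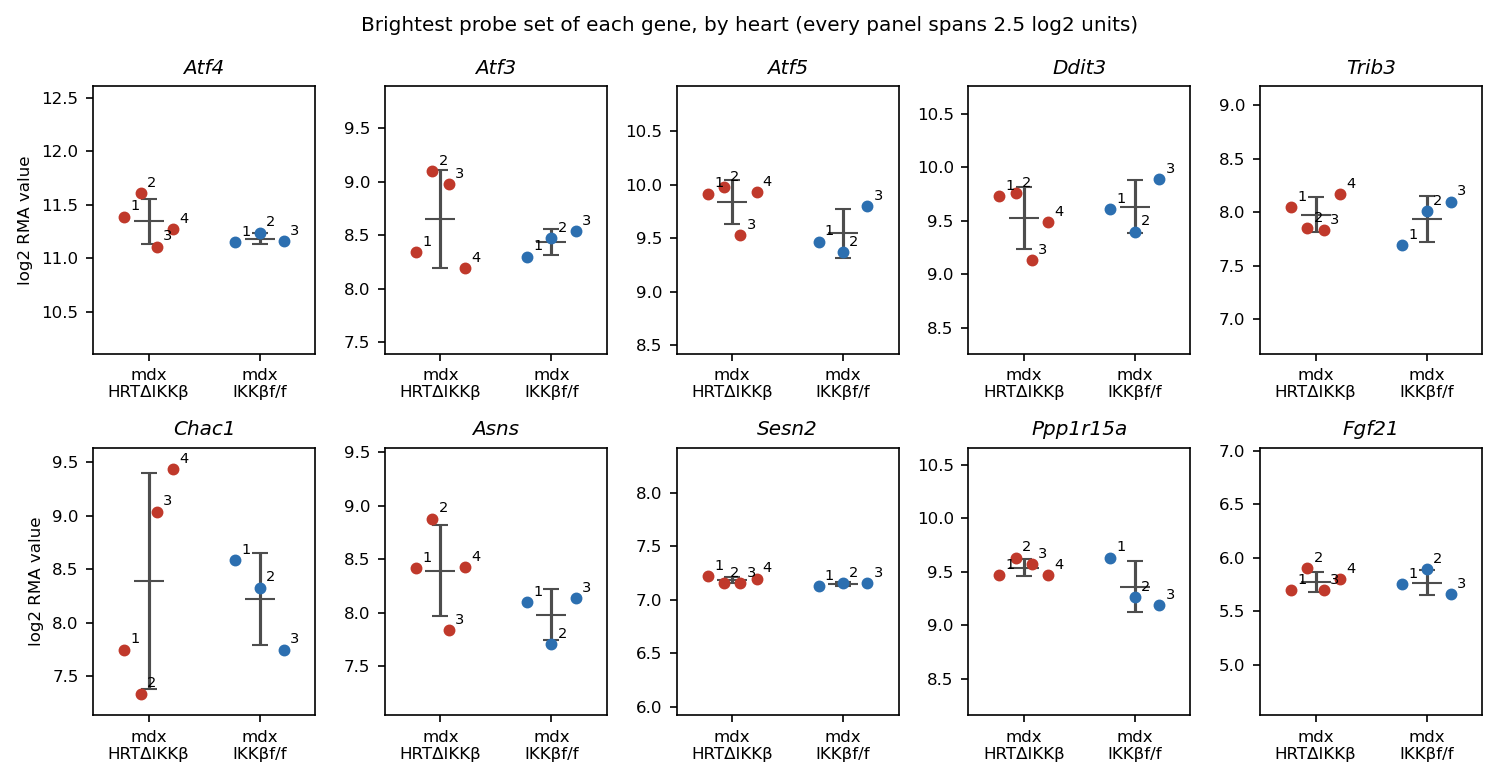
Log2 RMA value (y axes) of the brightest probe set of each of the 10 genes in single hearts, numbered by replicate, with group means and SD. The mdx HRTΔIKKβ hearts (red) stand left of the mdx IKKβf/f hearts (blue), and each panel spans the same range of log2 units. The genotypes overlap in all 10 panels, and Chac1 has by far the widest spread.

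Asns encodes asparagine synthetase, a classic target of ATF4 that makes asparagine from aspartate. Of the 10 genes it had the largest difference between means. It gave 8.42, 8.88, 7.84 and 8.43 in mdx HRTΔIKKβ hearts, against 8.10, 7.71 and 8.14 in mdx IKKβf/f hearts. Replicates 1, 2 and 4 of mdx HRTΔIKKβ were above every control, as for Atf5, and replicate 3 was again among the controls. The means were 8.39 ± 0.43 in mdx HRTΔIKKβ hearts and 7.98 ± 0.24 in mdx IKKβf/f hearts (SD), which differed by 0.41 ± 0.23 or 1.33-fold (limma, adjusted p = 0.796), with an interval from -0.12 to 0.95. The second probe set (1433966_x_at) moved with it at a correlation of 0.98 over hearts and differed by 0.38 ± 0.26. Without mdx HRTΔIKKβ replicate 2, the highest of its group, the difference of the brightest probe set was 0.249. Without replicate 3, the lowest of that group, it was 0.597 (limma over all probe sets, unadjusted p = 0.0102, adjusted p = 0.659).

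Chac1 encodes an enzyme that breaks down glutathione and is induced by ATF4 and CHOP. It varied more between hearts than any other of the 10 genes, with 7.75, 7.34, 9.04 and 9.44 in mdx HRTΔIKKβ hearts, against 8.59, 8.33 and 7.75 in mdx IKKβf/f hearts. The mdx HRTΔIKKβ hearts formed both ends of the range, with replicates 3 and 4 above every control and replicate 2 below every control. From the lowest to the highest heart the signal spanned 4.29-fold, and the spread within groups was larger than for 99.5% of all probe sets. The difference between genotypes, 0.17 ± 0.51 (limma, adjusted p = 0.956), was small beside that spread. It turned to -0.0463 without mdx HRTΔIKKβ replicate 3, to -0.179 without replicate 4 and to -0.0679 without mdx IKKβf/f replicate 3. It was 0.522 without mdx HRTΔIKKβ replicate 2 and 0.528 with arrays weighted by their quality.

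Feedback runs through Trib3 and Ppp1r15a. Trib3 encodes a pseudokinase that restrains ATF4 and CHOP, and it gave 8.05, 7.85, 7.83 and 8.17 in mdx HRTΔIKKβ hearts, against 7.69, 8.01 and 8.10 in mdx IKKβf/f hearts. The hearts of both genotypes were interleaved, with a difference of 0.04 ± 0.12 (limma, adjusted p = 0.956). The second probe set of Trib3 (1456225_x_at) differed by 0.13 ± 0.10. Ppp1r15a encodes GADD34, which brings a phosphatase to eIF2α and so ends the response. It gave 9.47, 9.63, 9.57 and 9.47 in mdx HRTΔIKKβ hearts, against 9.63, 9.26 and 9.19 in mdx IKKβf/f hearts. All 4 mdx HRTΔIKKβ hearts lay above replicates 2 and 3 of mdx IKKβf/f and replicate 2 matched mdx IKKβf/f replicate 1 at 9.63, with a difference of 0.17 ± 0.11 (limma, adjusted p = 0.804). When mdx IKKβf/f replicate 1 was left out together with mdx HRTΔIKKβ replicate 2, the difference was 0.27 (limma, unadjusted p = 0.00775, adjusted p = 0.969). Leaving out these 2 hearts was chosen after seeing the data.

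Sesn2 and Fgf21 were nearly flat across the 7 hearts. Sesn2 encodes sestrin, an inhibitor of mTORC1 that responds to leucine. It gave 7.22, 7.16, 7.16 and 7.20 in mdx HRTΔIKKβ hearts, against 7.13, 7.16 and 7.16 in mdx IKKβf/f hearts. Its whole range was 0.10, its spread within groups exceeded that of only 2.07% of probe sets, and its difference was 0.04 ± 0.05 (limma, adjusted p = 0.872). On 4 of the 7 arrays its value was identical to 6 decimals, so small differences in it carry little information. The second probe set of Sesn2 (1425139_at) differed by 0.10 ± 0.06.

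Fgf21 gave 5.70, 5.90, 5.70 and 5.80 in mdx HRTΔIKKβ hearts, against 5.75, 5.89 and 5.66 in mdx IKKβf/f hearts. Neither genotype stood higher, and the difference was 0.01 ± 0.08 (limma, adjusted p = 0.989), with an interval from -0.17 to 0.19. Its probe set had a mean at the 33.1 percentile of all probe sets, where RMA compresses differences, and the deposited values carry no detection call.

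Hearts were then compared across the 10 genes, because the design has few animals and a shared ranking would show in most members. Replicate 2 of mdx HRTΔIKKβ was the highest of the 7 hearts in 6 genes, Atf4, Atf3, Atf5, Asns, Ppp1r15a and Fgf21, and the lowest in Chac1. This was also the heart with the most signal of airway and neutrophil genes, and the part of that signal in these ranks was not tested. Replicate 4 of mdx HRTΔIKKβ was highest in 2 genes, Trib3 and Chac1. Replicate 3 of mdx HRTΔIKKβ stood above the mean of the 7 hearts in only 3 genes (Atf3, Chac1 and Ppp1r15a) and was the lowest in Atf4 and Ddit3. Each of the mdx IKKβf/f hearts was likewise above the mean in 3 genes.

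The members did not move as a single block over the hearts. Of 45 pairs of genes, 29 had a Pearson's r above 0, and the median r was 0.13. Only 2 pairs reached an unadjusted p of 0.05 by the exact two-sided permutation test, and 0 did after Benjamini-Hochberg adjustment over the 45 pairs (smallest adjusted p = 0.277 for r and 0.125 for rho). Atf5 and Asns were the closest pair, with r = 0.88 (exact p = 0.00615) and Spearman's rho = 0.96 (exact p = 0.00278). Their r was 0.90 without the 2 hearts farthest from the median of Atf5, and 0.83 with group means removed. Atf4 and Asns had r = 0.84 (exact p = 0.0145) and rho = 0.75 (exact p = 0.0663). Without the 2 hearts farthest from the median of Atf4 that r was only 0.35, and with group means removed it was 0.78. Leaving out the most extreme hearts narrows the range of Atf4, which can itself lower r. The drop therefore cannot show whether the relation fails without them. Atf4 and Ddit3, the factor and its textbook target, had r = 0.45 (exact p = 0.33) and rho = 0.46 (exact p = 0.302). That r was 0.11 without the 2 farthest hearts and 0.66 with group means removed. Ddit3 had r = 0.57 with Atf5 and 0.59 with Asns. With group means removed these were 0.93 and 0.88.

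Chac1 ran against several members. With Ddit3 its r was -0.74 (exact p = 0.0563) and its rho -0.79 (exact p = 0.048), and r was -0.72 without the 2 farthest hearts. With Atf4 its r was -0.62 (exact p = 0.143) and its rho -0.50 (exact p = 0.267). That r turned to 0.26 without the 2 farthest hearts and was -0.78 with group means removed. Neither pair passed adjustment over the 45 pairs in the values without centring.

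**Figure D3:**
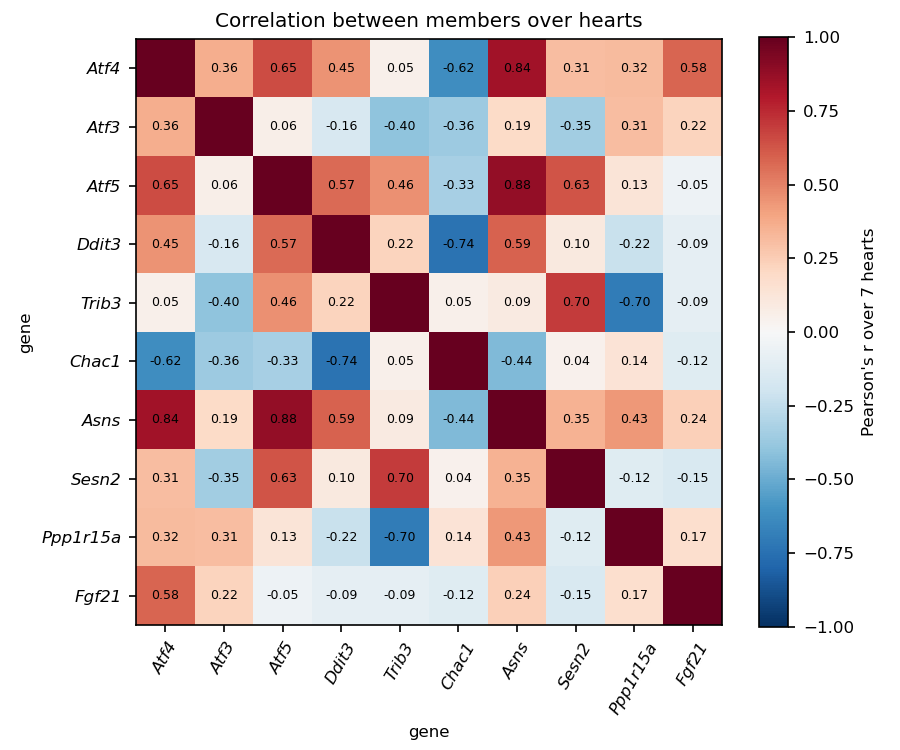
Pearson's r over the 7 hearts for each pair of the 10 genes (rows and columns, brightest probe set each), colored from -1 to 1. Asns is closest to Atf5 (0.88) and Atf4 (0.84), and the row of Chac1 is mostly blue, with its lowest value against Ddit3 (-0.74).

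Genes with the most similar profile over the 7 hearts were looked up among the other 18192 genes as a description. For Atf4 they were Ppa1, the inorganic pyrophosphatase (r = 0.998), Tmem154 (0.991), Psmg3, a proteasome assembly factor (0.98), complement factor Cfb (0.977) and Krcc1 (0.972). For Ddit3 they were the histone methyltransferase Ehmt2 (0.975), Mfng (0.97), Sox9 (0.967), Adcy7 (0.966) and Myo9b (0.963). For Chac1, the gene with the largest SD, they were Rab2a, a GTPase of the early secretory pathway (0.976), Ap3b1 (0.968), Zxdb (0.962), Med28 (0.957) and Golph3l (0.953). These are the highest of many correlations over 7 hearts and carry no test, and none of the 10 members was among them.

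Other genes of the stress lists were picked out after their values had been seen, for the hearts in which they were highest, and so carry no test. Ddit4, an mTORC1 inhibitor induced by stress, gave 8.67, 8.84, 11.50 and 11.23 in mdx HRTΔIKKβ hearts, against 8.25, 10.37 and 9.06 in mdx IKKβf/f hearts. Cebpb, a partner of ATF4 and CHOP, gave 10.20, 10.20, 11.64 and 11.33 in mdx HRTΔIKKβ hearts, against 10.28, 10.80 and 10.38 in mdx IKKβf/f hearts. In both genes, as in Chac1, replicates 3 and 4 of mdx HRTΔIKKβ were the highest hearts, but the other hearts ranked differently, and Ddit4 was lowest in mdx IKKβf/f replicate 1. Psat1, a serine synthesis enzyme, gave 7.81, 7.88, 6.86 and 7.07 in mdx HRTΔIKKβ hearts, against 7.07, 6.60 and 7.01 in mdx IKKβf/f hearts. Here replicates 1 and 2 of mdx HRTΔIKKβ were the highest, and replicate 3 was low, as it was in Asns.

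**Figure D4:**
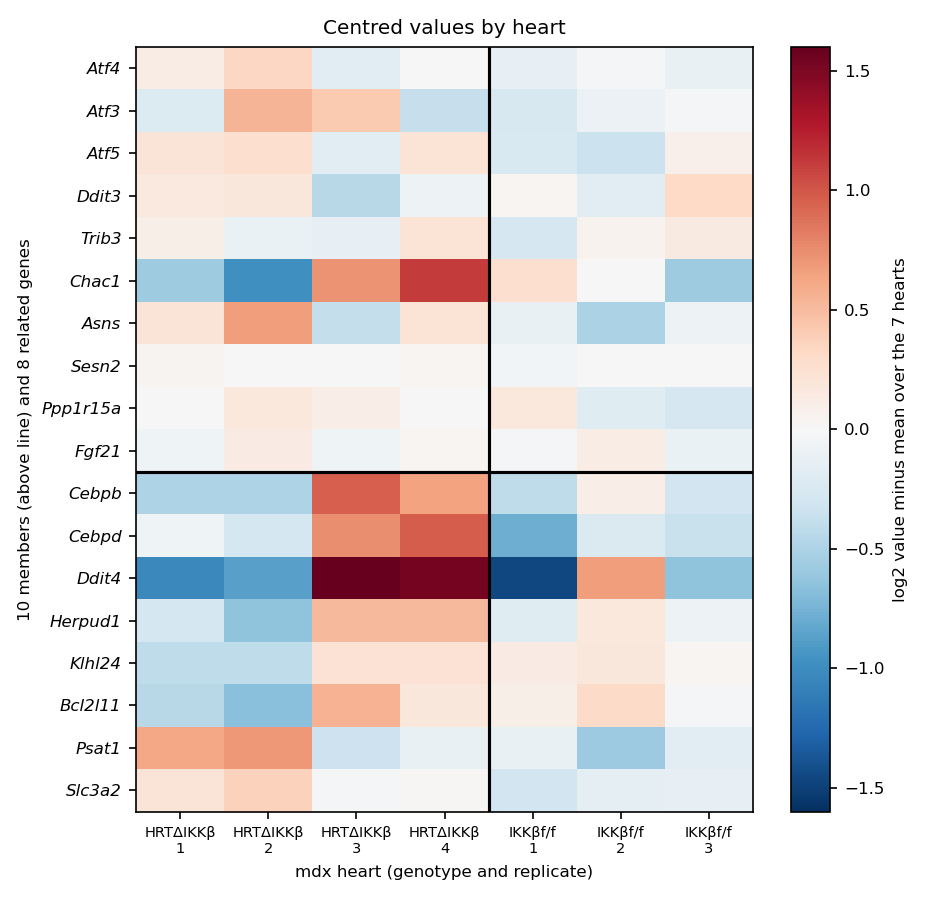
Log2 value minus the mean over the 7 hearts (color) for the 10 genes (above the line) and 8 related genes chosen after their values were seen (below it), by heart, with the 4 mdx HRTΔIKKβ hearts left of the 3 mdx IKKβf/f hearts. Replicates 3 and 4 of mdx HRTΔIKKβ are high in Chac1, Ddit4, Cebpb and Cebpd, while replicate 2 is high in Atf4, Atf3 and Asns.

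Wider lists of the pathway were read in the same fit, with 1 probe set per gene. None of their genes passed adjustment, and of all 18193 genes 3.25% reached an unadjusted p of 0.05 in the higher direction and 2.95% in the lower. Among 16 measured genes for eIF2α kinases, eIF2 and eIF2B subunits and their regulators, 2 reached that unadjusted threshold higher and 0 lower, with a median difference of 0.02. The 2 were Dnajc3, an endoplasmic reticulum co-chaperone also known as an inhibitor of PKR and PERK (0.36 ± 0.09, adjusted p = 0.79 in limma), and Eif2ak3, which encodes PERK (0.20 ± 0.09, adjusted p = 0.796 in limma). For both, every mdx HRTΔIKKβ heart exceeded every mdx IKKβf/f heart. Eif2ak3 was at the edge of the threshold (unadjusted p = 0.0492 in limma) and missed it in the methods' t-test (0.0786) and without mdx HRTΔIKKβ replicate 2 (a difference of 0.132, unadjusted p = 0.0707 in limma). Without that heart and mdx IKKβf/f replicate 1 both genes missed it, with differences of 0.308 for Dnajc3 and 0.122 for Eif2ak3. Eif2ak3 gave 8.31, 8.64, 8.33 and 8.46 in mdx HRTΔIKKβ hearts, against 8.22, 8.24 and 8.26 in mdx IKKβf/f hearts. The kinase gene Eif2ak2, which encodes PKR, differed by 0.25 ± 0.19 and was lowest in mdx IKKβf/f replicate 2 (6.04).

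Among 10 genes for partners and relatives of ATF4 with a basic leucine zipper, 9 had a higher mean, 2 reached the unadjusted threshold higher and 0 lower, and the median was 0.18. Jdp2, a repressor that pairs with Jun and ATF3, gave 7.80, 7.94, 8.02 and 8.14 in mdx HRTΔIKKβ hearts, against 7.51, 7.39 and 7.58 in mdx IKKβf/f hearts. The genotypes did not overlap, and the difference was 0.48 ± 0.09 (limma, adjusted p = 0.604). With all probe sets of Jdp2 averaged it was 0.261. Cebpd differed by 0.80 ± 0.32 (limma, adjusted p = 0.796), with overlap. It missed the unadjusted threshold in the methods' t-test (0.0949) and with its probe sets averaged (a difference of 0.473, unadjusted p = 0.0667 in limma). Cebpa, a fat and liver factor that was highest in mdx HRTΔIKKβ replicate 2 (9.83), differed by 0.57 ± 0.29. Adipocyte genes had their highest mean centred level in that same heart (1.97), and their part in the value was not tested.

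For amino acid supply and one-carbon metabolism, the output most directly tied to ATF4, 14 of 22 genes had a higher mean and 8 a lower mean, with a median of 0.09. At the unadjusted threshold 1 was higher and 1 lower. Slc3a2, the heavy chain of several amino acid exchangers, gave 10.46, 10.62, 10.22 and 10.27 in mdx HRTΔIKKβ hearts, against 9.95, 10.11 and 10.12 in mdx IKKβf/f hearts. The groups differed by 0.33 ± 0.10 (limma, adjusted p = 0.796). Cth, which makes cysteine from cystathionine, gave 6.00, 5.85, 6.44 and 6.28 in mdx HRTΔIKKβ hearts, against 6.95, 6.77 and 6.76 in mdx IKKβf/f hearts. Its difference was -0.68 ± 0.14 (limma, adjusted p = 0.758), opposite in direction to Slc3a2, and neither gene overlapped between the genotypes. The glutamine transporter gene Slc38a2 differed by 0.30 ± 0.16, and by 0.0654 without mdx HRTΔIKKβ replicate 2 and mdx IKKβf/f replicate 1. Without these hearts Slc3a2 differed by 0.204 and missed the unadjusted threshold.

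Cytosolic tRNA synthetases and the remaining targets showed little. Of 12 synthetase genes, 10 had a higher mean, 0 reached the unadjusted threshold in either direction, and the median was 0.06, with differences from -0.15 (Lars) to 0.12 (Nars). Eprs differed by -0.08 ± 0.06. Of 14 other targets of ATF4 or CHOP, 6 had a higher and 8 a lower mean, 0 reached the unadjusted threshold and the median was -0.05. The 3 nearest to it were Vldlr, a lipoprotein receptor (-0.22 ± 0.11), Nfil3, a leucine zipper repressor (0.38 ± 0.20), and Eif4ebp1, an inhibitor of cap-dependent translation (-0.16 ± 0.10). Without mdx HRTΔIKKβ replicate 2 and mdx IKKβf/f replicate 1 the last 2 stood at 0.116 and -0.0395.

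A list of endoplasmic reticulum genes, called folding genes here and holding many known targets of the ATF6 and XBP1 arms, is given beside them. Besides folding genes it holds degradation and translocation genes such as Edem1, Syvn1 and Sec61b, and Ern1, Atf6 and Xbp1 themselves. Of the 20 genes in this list, the mean of 19 was higher in mdx HRTΔIKKβ hearts. At the unadjusted threshold 14 were higher and 1, the sensor gene Ern1, lower, with a median of 0.35. Sdf2l1 (0.42 ± 0.06, adjusted p = 0.437 in limma), Creld2 (0.53 ± 0.08) and Manf (0.76 ± 0.13) had the smallest unadjusted p-values, and all 3 lay higher in every mdx HRTΔIKKβ heart. The mean level of the lymphocyte genes, among them Ighm and Jchain of antibody-secreting cells, also separated the genotypes. It ran from 0.09 to 1.58 in mdx HRTΔIKKβ hearts and from -1.30 to -0.24 in mdx IKKβf/f hearts. The mean level of the mesothelial genes separated them too, and the part of both lists in the folding genes was not tested. Without mdx HRTΔIKKβ replicate 2 and mdx IKKβf/f replicate 1 the median of the folding genes was 0.341. That median depended in size on the choice of probe set. Across the alternatives it was lowest, at 0.235, when all probe sets of each gene were averaged. It was 0.288 without mdx IKKβf/f replicate 2 and highest, at 0.366, without mdx HRTΔIKKβ replicate 4. The mean centred level of the folding genes ran from 0.10 to 0.19 in mdx HRTΔIKKβ hearts and from -0.27 to -0.11 in mdx IKKβf/f hearts. That of the 10 genes of the ATF4 and CHOP arm ran from -0.01 to 0.14 in mdx HRTΔIKKβ hearts and from -0.12 to -0.06 in mdx IKKβf/f hearts. The gap between these means did not hold for medians over the 10 genes. The medians ran from -0.1 (replicate 3) to 0.18 in mdx HRTΔIKKβ hearts and from -0.08 to -0.05 in mdx IKKβf/f hearts. Whether the lists differ from each other was not tested.

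**Figure D5:**
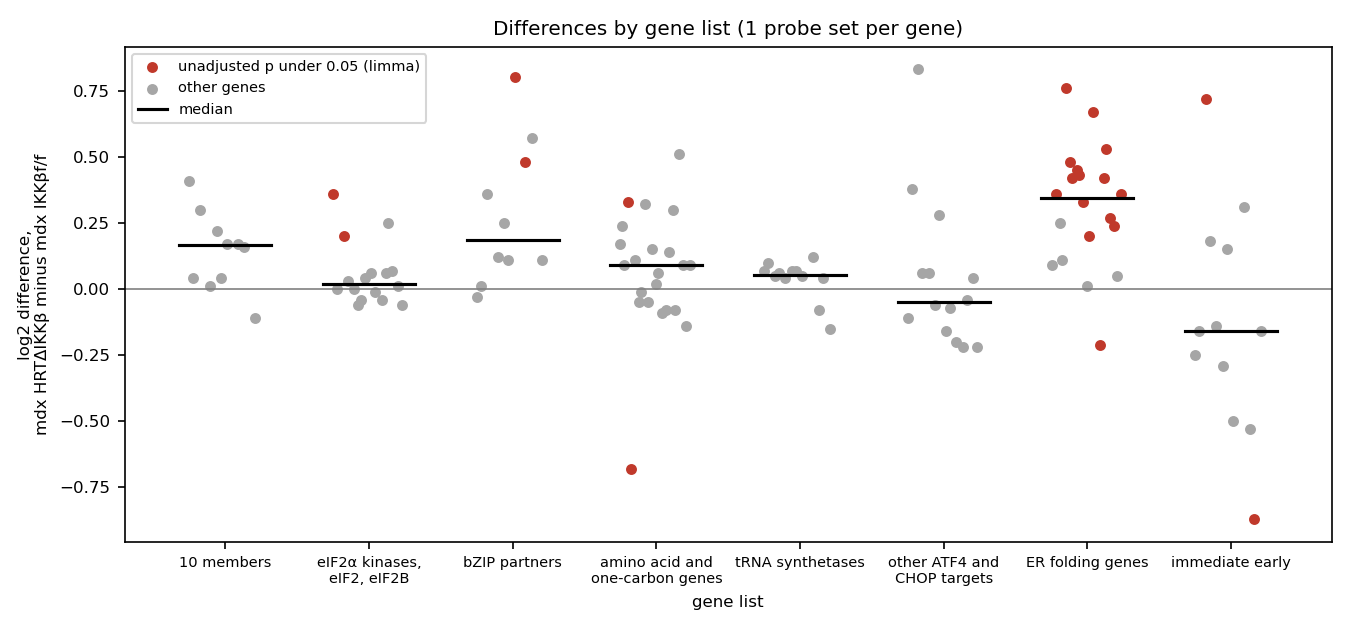
Difference of mdx HRTΔIKKβ less mdx IKKβf/f hearts on the log2 scale (y axis) for single genes in the 10 members and 7 wider lists (x axis), with 1 probe set per gene. Red points reached an unadjusted p of 0.05 in limma and bars mark medians. None of the 10 members is red, whereas 15 of 20 genes in the folding list are, 14 of them above 0. That list also holds sensor, degradation and translocation genes of the endoplasmic reticulum.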

How the data were processed

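Total RNA from 7 whole mdx hearts (4 mdx HRTΔIKKβ, 3 mdx IKKβf/f) was hybridized to Affymetrix Mouse Genome arrays. The authors deposited log2 values made by RMA (background correction, quantile normalization between arrays and 1 summary per probe set). The methods name Partek, with Affymetrix Expression Console run independently. Versions, and which program made the table, are not given in the sources used here. Differences of dim probe sets are compressed by RMA, and a global shift is lost in the quantile step.

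All 45037 probe sets entered limma 3.58.1 (lmFit, eBayes; R 4.3.3) without a filter. Tests were two-sided and Benjamini-Hochberg adjustment ran over all of them. The number of arrays limits the precision. The study describes its samples as biological replicates. Per the platform annotation, which can be old, 34945 probe sets had 1 gene symbol, 932 had several and 9160 had none, and only the first kind was named. The probe set with the highest mean represented each of 18193 genes. Fold changes were counted from 1.5-fold (0.585 on the log2 scale). Mean centred levels are means over a list of log2 values minus each gene's mean over the 7 hearts. Correlations used SciPy 1.17.1.

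The members and lists were chosen with earlier results of these data known, so no p was adjusted over a list alone. Genes named were the 10 members, Ikbkb, up to 3 genes per wider list with the smallest unadjusted p, and the 5 genes most correlated with Atf4, Ddit3 and the member of largest SD. Ddit4, Cebpb, Psat1, Ern1, Igk and others of the heat map fall outside this rule. The fit was checked on simulated data. Alternatives were centring arrays on their medians, repeating quantile normalization, leaving out probe sets that were dim or could cross-hybridize, other choices of probe set, trended and robust variance, array weights, the methods' t-test, the replicate number as a block, and leaving out each heart.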

Additional observations from a re-analysis of the deposited data

Results flagged for a closer look

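In 37 probe sets of members and named genes, the 4 mdx HRTΔIKKβ hearts were checked for a single heart far from the other 3, judged by its gap over the range of the group. By chance about 1 in 20 such groups would be noted if values were independent and never equal, and 5 of the 37 were. These probe sets share the same 4 hearts and some hold equal values, so an excess over chance cannot be judged. For Atf5, mdx HRTΔIKKβ replicate 3 had 9.53, while the other 3 lay between 9.92 and 9.98. In the dimmest Atf4 probe set the same heart had 5.39, and the other 3 all had 5.48. For the second probe set of Trib3, mdx HRTΔIKKβ replicate 4 had 7.23, and the other 3 all had 6.99. The gap filled the whole range in both of these, since RMA gave the other 3 arrays the same value. For Eif2ak2, mdx HRTΔIKKβ replicate 3 had 6.89, against 6.79 to 6.80 in the others. For Egr2, an immediate early factor, mdx HRTΔIKKβ replicate 4 had 6.13, against 6.67 to 6.72 in the others. Replicate 3 was thus the separate heart in 3 of the 5, low in Atf5 and Atf4 and high in Eif2ak2.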

How the results depend on the processing

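Across the alternatives, differences of single genes turned sign 18 times. In the main fit no probe set of the array passed adjustment, whether or not its gene turned sign. Medians of lists turned sign 3 times. For the immediate early genes the median was 0.036 without mdx IKKβf/f replicate 1. For the eIF2α kinase and eIF2 genes it was -0.004 without mdx HRTΔIKKβ replicate 2 and mdx IKKβf/f replicate 1. For the other ATF4 and CHOP targets it was 0.076 with the probe set of largest SD. No probe set of the 10 genes reached an adjusted p of 0.05 under any alternative. Over all probe sets the count at that threshold ran from 0 to 1 when single hearts were left out, the 1 being Igk, an immunoglobulin gene, without mdx HRTΔIKKβ replicate 1. At an unadjusted p of 0.05, the members' probe sets numbered 1 with array weights (Ddit3), 1 with the replicate block (Atf3) and 1 without mdx HRTΔIKKβ replicate 2 and mdx IKKβf/f replicate 1 (Ppp1r15a), an alternative added after seeing the data, as was the set of replicates 1 to 3 without the block. They numbered 0 to 4 when single hearts were left out, with 4 without mdx HRTΔIKKβ replicate 3 (Atf4, Atf5 and both of Asns). Without mdx HRTΔIKKβ replicate 2 and mdx IKKβf/f replicate 1 the median over the 10 genes was 0.048, Trib3 stood at -0.0425 and Fgf21 at -0.0419. With the replicate block Trib3 was -0.0239 and Chac1 -0.179, and both values were the same in replicates 1 to 3 without the block, so leaving out mdx HRTΔIKKβ replicate 4 accounts for them. Hearts with the same number did not deviate together (correlations of -0.075, -0.377 and -0.036), so the numbers were not taken to pair them. With the probe set of largest SD, Eprs was 0.0243. When single hearts were left out, Fgf21 ran from -0.0442 to 0.0685, Ddit3 from -0.225 to 0.0238, Chac1 from -0.179 to 0.522 and Trib3 from -0.0829 to 0.125, while Eif2ak2 ran from -0.0108 to 0.401, the lowest without mdx IKKβf/f replicate 2. Pairs of genes at an unadjusted p of 0.05 by the exact permutation test numbered 1 to 4 when single hearts were left out. With group means removed 7 pairs reached it. Centred values are not freely exchangeable between the genotypes, so that test is not exact and its p-values may be too small. The count of 7 is therefore a description. The cause of these shifts was not tested otherwise.

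For each gene the 95% interval gives the sizes of difference these 7 arrays leave possible. Signal over background is not given for single probe sets, and dim ones such as Fgf21 are the least certain.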

Other observations

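The immediate early genes, which respond within minutes to growth signals, mechanical load and handling of tissue, were read as a neighboring list. Of 12, the mean was higher in mdx HRTΔIKKβ hearts for 4 and lower for 8, with a median difference of -0.16. That median rested on a single control, since leaving out mdx IKKβf/f replicate 1 gave 0.036, and leaving out mdx HRTΔIKKβ replicate 2 as well gave -0.016. Nr4a1, a nuclear receptor gene, gave 9.73, 9.95, 10.32 and 9.42 in mdx HRTΔIKKβ hearts, against 10.96, 10.45 and 10.75 in mdx IKKβf/f hearts. It differed by -0.87 ± 0.21 (limma, adjusted p = 0.79). Egr2 differed the other way, by 0.72 ± 0.19 (limma, adjusted p = 0.79), and Dusp1, a phosphatase gene, by -0.29 ± 0.14. Fos varied widely in both genotypes, with 8.80, 8.82, 10.11 and 8.45 in mdx HRTΔIKKβ hearts, against 10.67, 8.52 and 9.44 in mdx IKKβf/f hearts.

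Identical values on several arrays were common in the deposited table. Compared to 6 decimals, 48.7% of all probe sets had at least 2 arrays at the same value and 20.2% at least 3, beside 6 and 3 of the 16 probe sets of the ATF4 and CHOP arm. Those 3 were the brightest probe set of Sesn2, the dimmest of Atf4 and the second of Trib3.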
